A study of Bos taurus with 20 samples.

Results

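Tetraspanins are small membrane proteins that cross the membrane 4 times and gather integrins, immunoglobulin-like partners and enzymes into clusters at the cell surface and on endosomes. They are abundant on extracellular vesicles, where CD9, CD63 and CD81 are the usual markers. In the ovary they are best known from the surface of the egg, where mouse eggs without CD9 bind sperm but rarely fuse with it. The 9 tetraspanin genes CD9, CD63, CD81, CD82, CD53, CD151, CD37, TSPAN4 and TSPAN8 were described here in the cell types of the bovine ovarian follicle. They were taken as all non-control probes whose gene name, without its transcript number, was that of a member, which gave 20 probes of 61325 and 9 of 22550 genes or transcripts on the array. Another 24 members of the family were on the same array.

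The data were 20 arrays with total RNA of cattle follicles, whose age, breed and genotype the labels do not give. The groups of 4 arrays each were theca cells (TH) scraped from the follicle wall, granulosa cells (GC) from the follicle interior, cumulus cells (CC) that surround the oocyte, oocytes, and CC that had spent 4 h in in vitro maturation (CC after IVM), in which the cumulus-oocyte complex is cultured before the CC are removed. The first 4 groups carry the stage label immature, and the follicles measured 3 to 6 mm. The study calls the arrays biological replicates, and how many animals or follicles each array pooled is not stated in the sources used here. Each array was a custom bovine Agilent array in 1 colour, hybridized with Cy3-labelled cRNA from 200 ng of RNA. A level below is log2 of the processed, background-subtracted intensity relative to the 75th percentile of that array, as the median over all probes of the gene, so 0 is the 75th percentile and a difference of 1 is 2-fold. Levels of different genes rest on different probes and were not set against each other. Tests were limma fits of all 22550 genes, called at an adjusted p under 0.05, and values after ± are SD over 4 arrays unless SE is written.

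TH, CC and oocytes carried their markers, while GC had no marker list of its own. All 5 theca markers had their highest mean of the 4 cell types in TH. All 4 granulosa and cumulus markers had theirs in CC, 0 in GC, and all 6 oocyte markers in the oocyte. Of the theca markers, 2 were called higher in GC than in CC, beside 4.61% of all genes. They were COL1A2 (5.72, adjusted p = 0.00067) and ACTA2 (2.41, adjusted p = 0.0052). On the arrays, 49.3% to 68.8% of probes were well above background, both extremes being oocyte arrays, and no spot was saturated. The 75th percentile of raw processed intensity was 1521.1 to 2890.7 on oocyte arrays and 284.5 to 1100.7 on the others. Replicates 1 and 2 of TH, GC, CC and oocyte lay on slide 1, their replicates 3 and 4 on slide 2, and all 4 arrays of CC after IVM on slide 3. Slide and maturation cannot be told apart. In bulk RNA, fewer cells of a type and less RNA per cell cannot be told apart either. The median gene lay at −0.52 in the oocyte relative to the somatic mean, and at 0.19 when limited to the 10012 genes detected above background on each of the 16 arrays.

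Of the 20 probes, those of the vesicle markers that lie in coding sequence are shown, because the values of CD9, CD63 and CD81 below rest on them. They are 60 bases long and were read from the array's own design, which is annotated on UMD 3.1. Capitals mark codons for cysteine in the reading frame of the gene, and in the second CD81 probe also the final TGA, its stop codon. Cysteines of the large outer loop form the disulfide bonds by which tetraspanins are recognized, and those next to the membrane carry lipid anchors.
CD9, transcript span chr5:104505691-104518399: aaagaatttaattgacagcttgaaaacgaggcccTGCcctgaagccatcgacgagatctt
CD63, transcript span chr5:57854278-57857485: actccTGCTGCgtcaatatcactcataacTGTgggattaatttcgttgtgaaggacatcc
CD81, first probe, transcript span chr29:49842969-49848639: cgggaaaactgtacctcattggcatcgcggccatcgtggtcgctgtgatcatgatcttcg
CD81, second probe, same span: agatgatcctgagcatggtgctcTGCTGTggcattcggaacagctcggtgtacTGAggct
The CD63 probe holds 3 cysteine codons, the CD9 probe 1 and the second CD81 probe 2. Each of the 4 sequences was on the array once. The other members were measured by probes on CD82 (chr15:75507140-75567303), CD53 (chr3:32598408-32637230), CD151 (chr29:50695518-50700467), CD37 (chr18:56276469-56281563), TSPAN4 (chr29:50560713-50570675) and TSPAN8 (chr5:790668-857389). CD151, TSPAN4 and CD81 thus lie on the same chromosome 29. The pair of CD82 probes shared 54 of their bases and the pair of CD53 probes 47, so their probes are not separate measurements.

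Every one of the 9 genes differed among TH, GC, CC and oocyte by limma's F-test, against a background of 71.3% of all genes. Among the 6 members above background in the oocyte, CD9, CD63, CD81, CD82, CD151 and TSPAN4, the oocyte mean was the lowest of the 4 cell types for each, with CD63 and CD81 as exceptions in the deposited table and CD81 within slide 1. The share of all genes lowest in the oocyte was not counted. Of the 24 other tetraspanins, detected there or not, 11 also had their lowest mean in the oocyte. CD53 was not detected in the oocyte. For CD37 and TSPAN8 no oocyte array was above background either, and the lowest signal well above background, −6.84, −4.02, −6.84 and −5.91 on the oocyte arrays, was −5.72 to −4.84 on arrays of TH, GC and CC, so their rank compares background. The oocyte was called below the mean of TH, GC and CC for 8 members and above it for 0. Over all genes, 38.3% were called lower and 32.9% higher in the oocyte. The median of the 9 differences was −1.75, beside −0.52 over all genes and 0.19 over the genes detected on each of the 16 arrays. It is the value of TSPAN8 itself. The 9 also include CD53 and CD37, so this median partly compares background. TH had the highest mean of the 4 cell types for 7 members, among them CD151 with 6.83 in TH and 6.82 in CC. The share of all genes highest in TH was not counted. For TSPAN4 the median over its probes was highest in CC, but its brighter probe was highest in TH (1.44, against 0.52 in CC). TSPAN8 was too near background to rank.

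**Figure D1:**
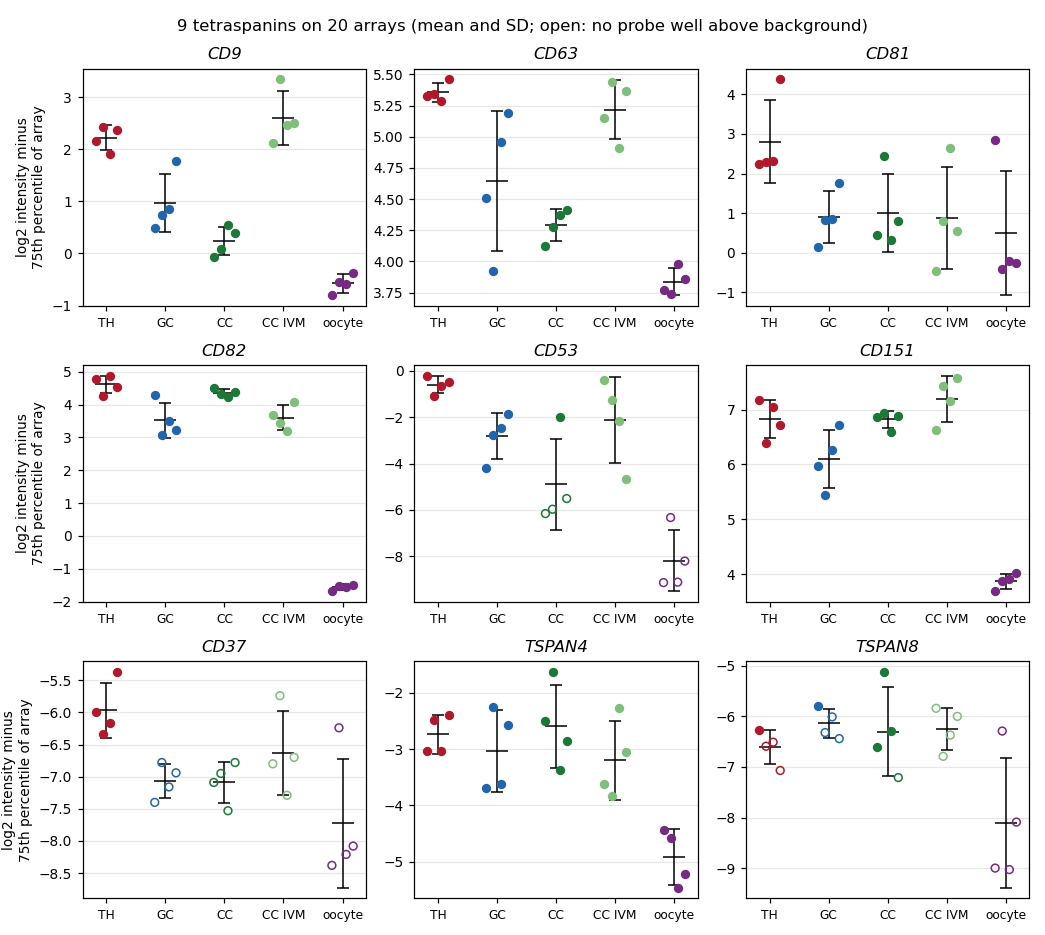
Level of each tetraspanin (log2 intensity minus the 75th percentile of the array, y axis with its own range per gene) on each of the 20 arrays by group, with mean and SD of 4 arrays as bars. Open points are arrays on which no probe of the gene was well above background. The 4 oocyte arrays lie lowest for CD82 and CD151, and for CD81 oocyte replicate 1, at 2.84, lies far from the other oocyte arrays.

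CD9 organizes adhesion partners on many cells and is the tetraspanin of the egg surface. Its level was 2.16, 2.43, 1.90 and 2.37 on the 4 TH arrays and 0.49, 0.73, 0.86 and 1.77 on the GC arrays. On the CC arrays it was −0.06, 0.09, 0.54 and 0.39, and on the oocyte arrays −0.80, −0.54, −0.59 and −0.37. TH lay above the other cell types on all 4 arrays with no overlap, the oocyte lay below all somatic arrays, and GC and CC overlapped. TH exceeded GC by 1.25 ± 0.25 (SE, limma, adjusted p = 0.0012) and CC by 1.98 (adjusted p = 1.3e-05), though within slide 2 alone the difference from GC was 0.82 (adjusted p = 0.21). The oocyte was lower than the somatic mean by 1.71, as a difference of −1.71 ± 0.20 (SE, adjusted p = 1.2e-06). Transcripts were well above background on all 4 oocyte arrays, so the gene was detected in the oocyte although its level was the lowest there. GC and CC differed by 0.72 (95% interval 0.20 to 1.25, adjusted p = 0.083). The oocyte was also below CC alone, by 0.82 (adjusted p = 0.0085), a call lost in the deposited table (0.32, adjusted p = 0.25).

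CD63 resides on late endosomes and lysosomes and marks vesicles released from them. The 4 TH arrays gave 5.33, 5.34, 5.29 and 5.46, the GC arrays 4.51, 3.92, 4.96 and 5.19, the CC arrays 4.12, 4.28, 4.37 and 4.41, and the oocyte arrays 3.77, 3.74, 3.98 and 3.86. TH overlapped with no other cell type, while the GC arrays spread widely enough to reach past both ends of the CC range. TH was higher than the mean of GC and CC by 0.89 (95% interval 0.49 to 1.29, adjusted p = 0.0016), and the oocyte was lower than the somatic mean by 0.93 (−0.93 ± 0.18 SE, adjusted p = 0.00021). In the deposited table, whose background was not subtracted, the oocyte difference was −0.28 (adjusted p = 0.17). The neighbours GC and CC (difference 0.35, 95% interval −0.11 to 0.81) and CC and oocyte (0.46, adjusted p = 0.078) did not pass the test. The second of these passed in 6 of 32 alternatives, among them the brightest probe of each gene (0.60, adjusted p = 0.027) and slide as a block (0.46, adjusted p = 0.045). Within slide 2 alone the call of TH against GC and CC was lost (0.65, adjusted p = 0.053).

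CD81, the partner of the immunoglobulin-like proteins IGSF8 and PTGFRN, varied more between arrays of a group. TH gave 2.25, 2.28, 2.33 and 4.38, GC 0.15, 0.84, 0.85 and 1.76, CC 0.45, 2.44, 0.33 and 0.80, and oocytes 2.84, −0.40, −0.21 and −0.25. Single arrays of TH, CC and oocyte stood far above the others of their group. The mean in TH was above that in the oocyte by 2.32 ± 0.72 (SE, adjusted p = 0.0099, but 1.05 with adjusted p = 0.52 within slide 1) and above the mean of GC and CC by 1.86 (adjusted p = 0.031). This last call was lost without TH replicate 4 (1.33, adjusted p = 0.14), without GC replicate 1 (1.73, adjusted p = 0.057) and without CC replicate 1, 3 or 4 (1.76, 1.74 and 1.82, adjusted p = 0.055, 0.056 and 0.05). CD81 was the only member not called lower in the oocyte (−1.08, 95% interval −2.33 to 0.17, adjusted p = 0.10). Without oocyte replicate 1 the difference was −1.86 (adjusted p = 0.0035).

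The arrays high in CD81 were TH replicate 4, CC replicate 2, oocyte replicate 1 and, after IVM, CC replicate 3 (2.64, against −0.45, 0.79 and 0.55), and they came from all 3 slides. Both CD81 probes, which share no bases, gave the same pattern. How far apart they lie on their shared transcript was not measured, so this is not shown to be agreement of separate regions. The deviation of CD81 from the median of its group was 2.08, 1.81, 3.07 and 1.97 on these arrays. A probe of CD151 that is separate from the other 3 probes of that gene deviated by 1.72, 1.44, 1.94 and 1.45 on them, and its deviations correlated with those of CD81 at r = 0.95 over the 20 arrays, as a description. A bright CD151 probe gave r = 0.10 and the bright TSPAN4 probe r = 0.66. As a gene TSPAN4 deviated by 0.36, 1.06, 0.47 and 1.07 on the 4 arrays, and CD63 deviated by 0.13, −0.05, −0.05 and −0.35. Among 22766 probes above background on all arrays, 103 (0.452%, of 67 genes) lay at least 1 above their group's median on all 4 of these arrays, and 3 of them were member probes. These 3 were both CD81 probes, by whose values the arrays were picked, and the separate CD151 probe. GC replicate 4 also lay above its group's median, by 0.91 for CD81 and 1.37 for that CD151 probe. The 4 arrays were chosen after their CD81 values were seen. Leaving them out narrows the spread of CD81 itself, so the adjusted p-values that follow are no further support. With all 4 left out, TH exceeded the mean of GC and CC by 1.57 (adjusted p = 0.00074), GC by 1.38 (adjusted p = 0.0045, against 0.064 with all arrays) and the oocyte by 2.58 (adjusted p = 1.3e-05). What set these arrays apart was not tested.

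**Figure D2:**
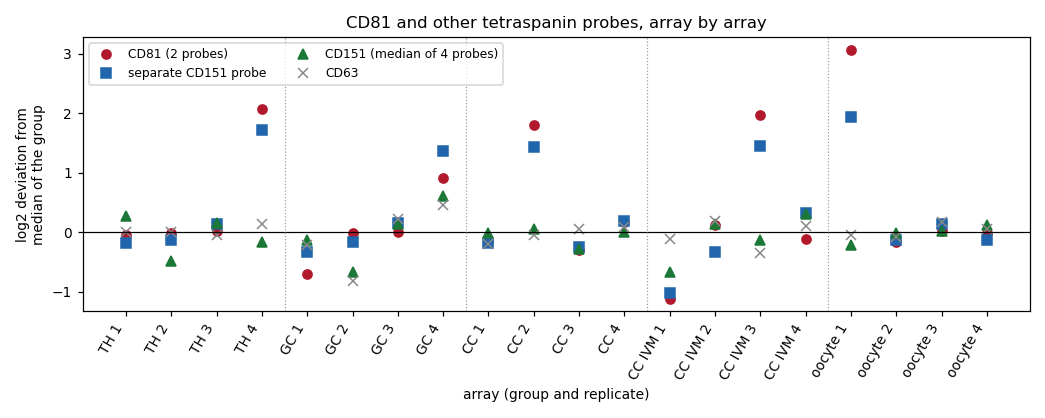
Deviation of each array from the median of its group (y axis, log2) for CD81, the separate CD151 probe, CD151 as a gene and CD63, over the 20 arrays on the x axis, with dotted lines between groups. CD81 and the separate CD151 probe stand out together on TH 4, CC 2, CC IVM 3 and oocyte 1, by 1.44 to 3.07, where CD63 deviates by −0.35 to 0.13.

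CD82 restrains cell migration and binds integrins. TH arrays gave 4.77, 4.27, 4.88 and 4.54, GC arrays 4.28, 3.09, 3.49 and 3.23, and CC arrays 4.52, 4.32, 4.22 and 4.39. Oocyte arrays gave −1.69, −1.52, −1.55 and −1.48. The oocyte arrays lay far below every somatic array, and the gap was −5.72 ± 0.18 (SE, adjusted p = 2.4e-13), or −5.00 to −5.92 over all alternatives. GC was the lowest of the somatic cells. It was below TH by 1.09 (TH minus GC, adjusted p = 0.0017) and below CC (GC minus CC −0.84, adjusted p = 0.027), and CD82 was the only member called between GC and CC, where 5.28% of genes were called lower and 4.61% higher in GC. That call was lost in 9 of 32 alternatives, among them both slides alone (adjusted p = 0.57 and 0.12) and without GC replicate 2, 3 or 4 or CC replicate 1, 2 or 4 (−0.69, −0.83, −0.74, −0.79, −0.85 and −0.83, adjusted p = 0.082, 0.066, 0.062, 0.077, 0.061 and 0.065). TH and CC did not pass the test against each other (0.25, 95% interval −0.23 to 0.73).

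CD151 holds laminin-binding integrins in place at contacts with the basement membrane. TH arrays gave 7.17, 6.39, 7.04 and 6.72, GC 5.98, 5.45, 6.26 and 6.72, CC 6.87, 6.94, 6.60 and 6.89, and oocytes 3.69, 3.88, 3.92 and 4.02. The oocyte lay below every somatic array, with a difference of −2.71 (95% interval −3.12 to −2.29, adjusted p = 3.6e-09), while the somatic groups overlapped. TH minus CC was 0.01 (95% interval −0.50 to 0.52, adjusted p = 0.99). TH exceeded GC by 0.73 (adjusted p = 0.034), which did not hold without TH replicate 1 or 3 or GC replicate 1 or 2 (adjusted p = 0.11, 0.092, 0.082 and 0.11). Of the 4 probes, a pair was identical in sequence and overlapped the next by 33 bases. The separate probe, designed on the longer CD151 transcript, also gave a lower oocyte level (−2.96, adjusted p = 4e-05).

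CD53 and CD37 are tetraspanins of white blood cells. CD53 was well above background on all 4 TH arrays (−0.20, −1.07, −0.65 and −0.48), all 4 GC arrays (−4.19, −2.78, −2.47 and −1.84) and on 1 CC array (−1.97, with −6.16, −5.97 and −5.51 on the others). It was above background on 0 oocyte arrays (−9.14, −6.33, −9.12 and −8.21). TH lay above all GC, CC and oocyte arrays, and CC replicate 3 lay inside the GC range. Against the lowest signal well above background on the oocyte arrays, TH was at least 39.5-fold higher and GC at least 8.46-fold higher. TH exceeded CC by 4.31 ± 0.84 (SE, adjusted p = 0.00083), with 3 of the 4 CC arrays below background, and the same difference was 2.37 with normexp, 2.73 in the deposited table and 3.18 within slide 2, where it did not pass (adjusted p = 0.083). TH minus GC, where every array was above background, was 2.22 and did not pass the test (adjusted p = 0.064), though it passed in 7 of 32 alternatives, among them quantile normalization (2.24, adjusted p = 0.029), normexp (1.49, adjusted p = 0.0027) and the deposited table (1.84, adjusted p = 0.0017). Within slide 2, which holds CC replicate 3, TH minus the mean of GC and CC was 2.38 (adjusted p = 0.12), and within slide 1 it was 4.14 (adjusted p = 0.021).

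CD37 was above background in TH alone, on 4 arrays, through 1 of its 2 probes. That probe gave −4.52, −5.08, −4.96 and −3.34 in TH. Against the lowest signal well above background there, it was at least 1.47-fold higher than in GC and at least 1.91-fold higher than in CC. These bounds were not tested. The measured differences, from GC and CC values below background, were 2.44 (limma, adjusted p = 0.0011) and 2.12 (adjusted p = 0.0023). The other probe was not above background on any of the 20 arrays. The median over both probes sets TH against values below background, and its call against the mean of GC and CC (adjusted p = 0.018) was lost without TH replicate 4 (adjusted p = 0.071) and with normexp background correction (adjusted p = 0.77). The called drop of CD37 in the oocyte (−1.02, adjusted p = 0.0092) set oocyte values below background mainly against GC and CC values below background, and no fold is given for it. It was lost without oocyte replicate 1 (−0.80, adjusted p = 0.051).

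Of 8 markers of white blood cells, 6 were called higher in TH than in the mean of GC and CC and 0 lower. Over all genes, 14.3% were called higher and 18.5% lower. CD79A (−0.09, adjusted p = 0.86) and CD68 (0.89, adjusted p = 0.11) were not called. PTPRC, the CD45 antigen of all such cells, was above background on 4 TH arrays and on 0 arrays of every other group. All 8 were above background on every TH array, 6 to 7 on GC arrays, 6 on CC arrays, 5 to 7 on arrays of CC after IVM and 4 to 7 on oocyte arrays. Their summed linear level, in units of the 75th percentile, was 5.05 to 8.63 in TH, 0.482 to 2.21 in GC, 0.309 to 0.982 in CC, 0.978 to 2.99 in CC after IVM and 13.3 to 16.2 in oocytes. The high oocyte sums came with CSF1R at a mean of 3.70, LCP1 at 0.29 and CD3E at −0.07, each called higher there than in the somatic mean (4.93, 2.82 and 3.98, adjusted p = 2.3e-08, 0.00012 and 1.1e-06), while neither PTPRC nor CD53 was above background in the oocyte. The endothelial marker PECAM1 was at 0.25 in TH and at −5.37 in GC. The part of these cells in the levels of CD53 and CD37 was not tested. The genes most like CD53 over the 20 arrays were CD48 (Pearson r = 0.985), SAMSN1 (0.971) and SLA (0.967).

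TSPAN4, which is enriched on the membrane tracks left behind by migrating cells, had a bright and a dim probe. On the bright probe TH arrays gave 0.88, 1.25, 1.16 and 2.46, GC −0.12, 0.19, −0.40 and 0.99, CC 0.35, 0.91, 0.04 and 0.77, and oocytes −1.93, −2.92, −2.65 and −2.42. All oocyte arrays lay below all somatic ones, and TH overlapped GC and CC only at its lowest array. By this probe the oocyte difference was −3.19 (adjusted p = 1.4e-07) and TH exceeded the mean of GC and CC by 1.10 (adjusted p = 0.016). The dim probe was above background on 4 of 20 arrays, and the median over both gave −2.13 (adjusted p = 2.3e-05) for the oocyte and 0.08 (adjusted p = 0.93) for TH.

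TSPAN8, an epithelial tetraspanin found on vesicles of digestive and tumour cells, was near the limit of detection. It was above background on 1 TH array, 1 GC array, 3 CC arrays and 0 arrays of oocytes or CC after IVM, always through the same probe. The highest value of that probe was −2.78, on CC replicate 2. The called drop in the oocyte (−1.75, adjusted p = 0.0019) therefore concerned values mostly below background, and it was lost within slide 1 (−1.53, adjusted p = 0.14). The call of TH over the oocyte (adjusted p = 0.021) rests on 1 TH array above background and was lost in 5 of 32 alternatives, without TH replicate 1 (1.38, adjusted p = 0.054) or oocyte replicate 1 or 3 (1.20 and 1.19, adjusted p = 0.075 for both), with the array median (1.26, adjusted p = 0.062) and within slide 1 (1.22, adjusted p = 0.34).

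**Figure D3:**
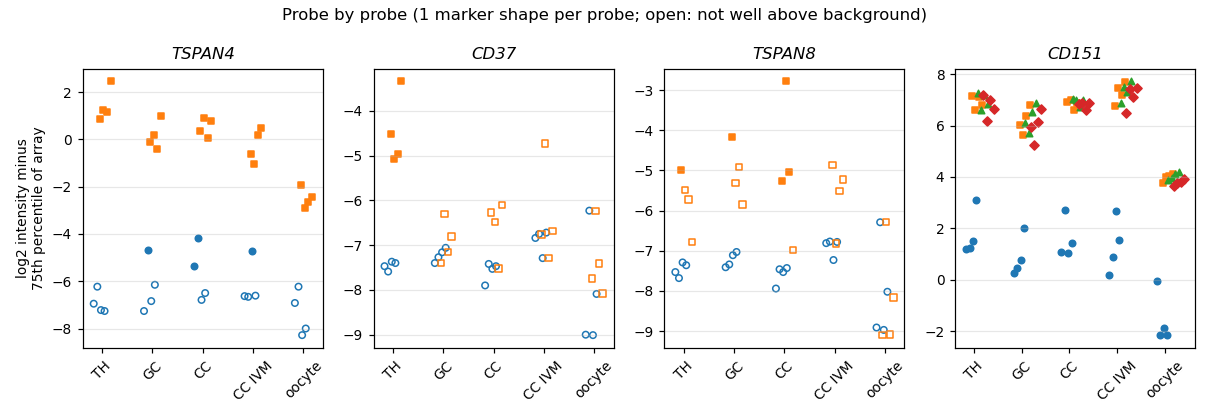
Levels of single probes (log2 intensity minus the 75th percentile of the array) by group for TSPAN4, CD37, TSPAN8 and CD151, with 1 marker shape per probe and open markers where the probe was not well above background. For CD37 only 1 probe is above background, and only in TH, for TSPAN4 the bright probe lies lowest in the oocyte, and for CD151 all 4 probes lie lowest in the oocyte.

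Within the somatic cells, TH was above the mean of GC and CC for 6 members, CD9, CD63, CD81, CD82, CD53 and CD37, and below it for 0, where 14.3% of all genes were called higher and 18.5% lower in TH. The call of CD82 (0.67) was lost without TH replicate 3 (0.58, adjusted p = 0.058). Against GC alone TH was higher for 5 members (background 11.8%) and lower for 0 (14.5%). Against CC alone it was higher for 4 (14.4%) and lower for 0 (17.4%), and against the oocyte it was called higher for all 9 (32.1%), among them CD53, CD37 and TSPAN8, which were above background on 0 oocyte arrays. GC was above the oocyte for 7 members (37.9%) and below it for 0 (30.7%), and CC was above it for 6 (32%). Of the 54 combinations of a member and a pair of cell types 32 passed, where 44.2% did over all genes. The oocyte's own neighbour, the CC, differed from it most in CD82, by 5.92, among members above background in both.

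**Figure D4:**
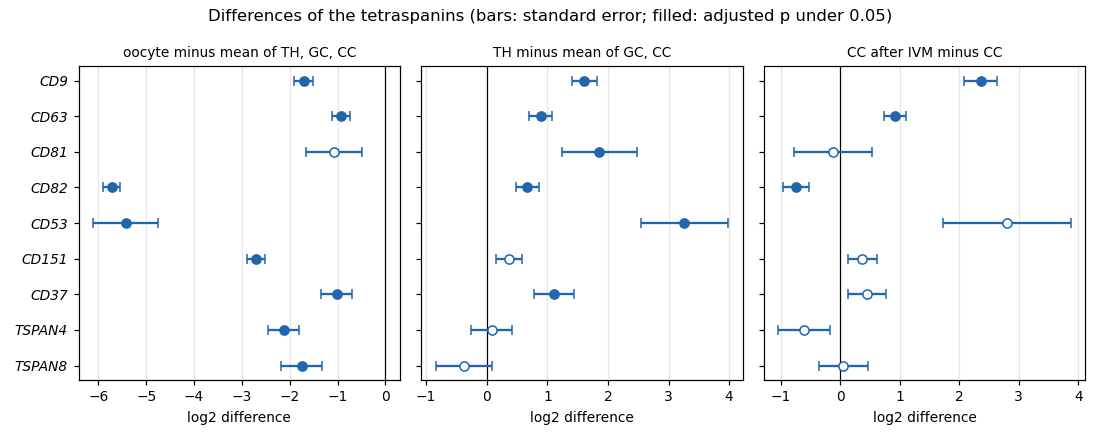
Differences of the 9 tetraspanins (x axis, log2, bars are SE) for the oocyte against the somatic mean, TH against the mean of GC and CC, and CC after IVM against CC. Filled points passed the adjusted p of 0.05, and the oocyte difference runs from −5.72 for CD82 to −0.93 for CD63. For CD53, CD37 and TSPAN8 the oocyte values lie below background, and for CD37 also those of GC and CC, so these points are not fold changes.

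The 4 arrays of CC after IVM allowed a comparison of cumulus cells before and after 4 h of maturation. CD9 rose to 2.12, 3.34, 2.46 and 2.50, above every CC array, by 2.36 ± 0.28 (SE, adjusted p = 0.00021). CD63 also rose, to 5.15, 5.44, 4.91 and 5.37, by 0.92 ± 0.19 (SE, adjusted p = 0.005), again with no overlap with the CC arrays. The 2 members called higher compare with 30.3% of all genes, and the median difference over all genes was 0.37. With quantile normalization, which brings that median to 0.01, the differences were 2.24 for CD9 (adjusted p = 0.0005) and 0.56 for CD63 (adjusted p = 0.021). Over all alternatives the CD9 difference was 1.85 to 2.53 and its highest adjusted p 0.0046.

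CD82 moved the opposite way, to 3.70, 3.45, 3.19 and 4.09, all below the CC arrays. It fell by 0.75 (−0.75 ± 0.22 SE, adjusted p = 0.024), as the only member called lower, beside 15.5% of all genes. Without CC replicate 1 it was −0.70 (adjusted p = 0.063), and without CC replicate 4 −0.75 (adjusted p = 0.051). CD53 was above background on all 4 arrays of CC after IVM (−0.37, −1.25, −2.14 and −4.66) and on 1 of 4 CC arrays. Its difference of 2.80 ± 1.07 (SE) did not pass (adjusted p = 0.056), and it was 3.77 without CC replicate 3 (adjusted p = 0.011) and 3.65 without replicate 4 of CC after IVM (adjusted p = 0.022). For the others the difference was 0.37 for CD151 (95% interval −0.16 to 0.90), −0.12 for CD81 (−1.59 to 1.34) and −0.61 for TSPAN4 (−1.57 to 0.36). CD151 passed only without replicate 1 of CC after IVM (0.56, adjusted p = 0.044). CD37 and TSPAN8 were above background on 0 arrays after IVM. All these differences also separate slide 3 from slides 1 and 2.

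Of the 24 other tetraspanins, 19 passed the F-test, beside 71.3% of all genes. Against the somatic mean the oocyte was lower for 8 of them (38.3% of all genes) and higher for 7 (32.9%), with a median difference of −0.20. TSPAN6 had mean levels of 3.58 ± 0.11 (TH), 3.92 ± 0.16 (GC), 3.87 ± 0.09 (CC) and −4.19 ± 0.34 (oocyte), where 3 of 4 arrays were above background, a difference of −7.98 (adjusted p = 6e-16). UPK1B, a uroplakin of the bladder surface, was lower by 4.80 (−4.80, adjusted p = 6.2e-12), with mean levels of −0.35 for TH, 4.39 for GC and 5.48 for CC. TSPAN7, known from nerve cells, was at 4.48 ± 0.38 in the oocyte, 5.29 above the somatic mean (adjusted p = 9.1e-10). TSPAN19 was at −0.25 in the oocyte and above background on 0 TH and 0 GC arrays, so the oocyte was at least 32.8-fold above TH and at least 27.5-fold above GC.

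Between TH and the mean of GC and CC, 8 of the 24 were higher in TH and 4 lower, beside 14.3% and 18.5% of all genes. UPK1B differed by −5.28 (adjusted p = 2.2e-10), TSPAN33, a partner of the protease ADAM10, by 4.44 (adjusted p = 8.6e-10) and TSPAN7 by 3.16 (adjusted p = 5.2e-06). TSPAN12, a coreceptor for norrin, was above background on 2 GC arrays and 0 CC arrays, and TH was at least 11.4-fold above CC. The measured difference, from CC values below background, was 5.17 (limma, adjusted p = 7.9e-09). After IVM, 9 were called higher and 1 lower in CC, beside 30.3% and 15.5% of all genes. Among the 9, PRPH2 (0.64) and TSPAN16 (0.79) were above background on 0 arrays before or after IVM. TSPAN2 (0.82) was above it on 0 before and 1 after, so these calls mostly compare background. TSPAN12 was above background on 4 arrays after IVM and 0 before, at least 10.5-fold higher. Its measured difference was 5.05 (limma, adjusted p = 3.3e-05). TSPAN5 rose by 1.98 (adjusted p = 0.00071), TSPAN15 by 1.31 (adjusted p = 0.0028) and TSPAN31 by 0.97 (adjusted p = 0.0083).

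**Figure D5:**
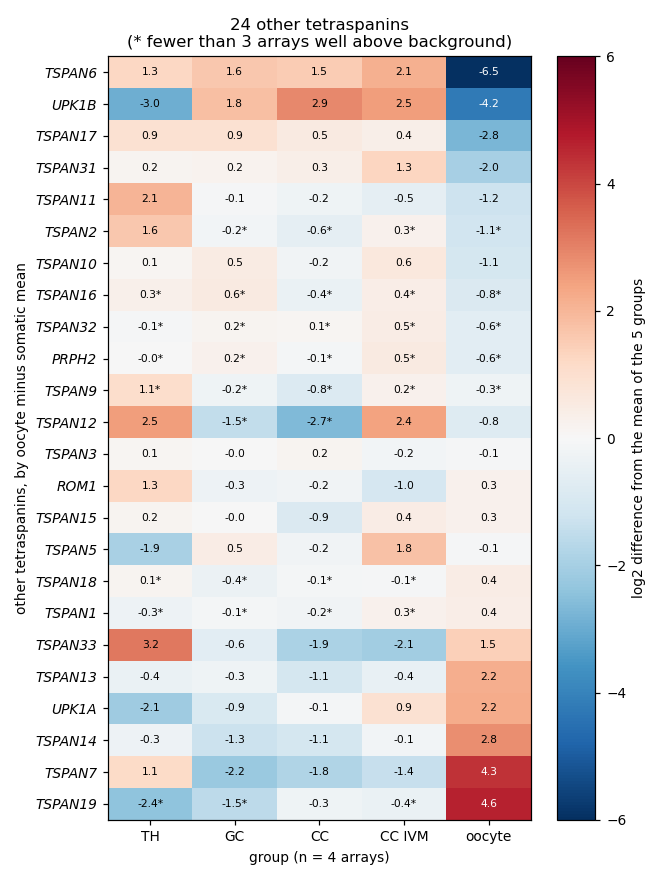
Mean level of each of the 24 other tetraspanins in each group as the log2 difference from the mean of that gene over the 5 groups (colour and printed value), ordered by the oocyte difference from the somatic mean. Asterisks mark groups with fewer than 3 of 4 arrays well above background, and the oocyte column runs from blue for TSPAN6 to red for TSPAN19.

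Of the 12 genes listed as binding partners of tetraspanins, 11 were on the array and all 11 passed the F-test (71.3% of all genes), 3 higher and 5 lower in the oocyte (32.9% and 38.3%). The immunoglobulin-like partners of CD9 and CD81 were both lower there, IGSF8 by 4.43 (−4.43, adjusted p = 4.2e-11) and PTGFRN by 3.49 (−3.49, adjusted p = 1.6e-11, named after its values were seen). TIMP1, a protease inhibitor that binds CD63, was also lower (−7.67, adjusted p = 2.4e-09). EPCAM, an adhesion molecule, was at 2.73 in the oocyte and above background on 0 GC arrays (at least 217-fold), and HBEGF, a growth factor held by CD9 at the membrane, was 7.80 above the somatic mean (adjusted p = 5.3e-13). After IVM, 3 partners rose in CC and 4 fell (30.3% and 15.5% of all genes). HBEGF rose by 4.43 (adjusted p = 6e-06), TIMP1 by 2.02 (adjusted p = 0.0047) and SDCBP, the syntenin that links CD63 to vesicle formation, by 1.58 (adjusted p = 0.0008), while IGSF8 fell (−1.55, adjusted p = 0.0026).

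Across the 20 arrays, which include the group differences described above, the levels of CD9 and CD63 correlated at r = 0.934 and those of CD82 and CD151 at 0.926, while CD81 reached at most 0.561, with TSPAN4. Among 17561 genes compared, those nearest to CD9 were CAPN2 (r = 0.970), SNAI2 (0.961) and DCLK1 (0.954), and to CD63 ANXA2 (0.939), CD9 and CAMK1G (0.933). CD82 was nearest to GLTSCR2, ITFG1 and TCN2 (each 0.992), and CD151 to LAMC1 (0.979), TM9SF2 and SLC12A4 (both 0.977). The genes nearest to CD81 were a pair of unnamed transcripts (0.947 and 0.915) and LYRM4 (0.914). For TSPAN4 they were LMF2 (0.950), PTPRS (0.927) and ALDH16A1 (0.919). For CD37 and TSPAN8, mostly below background, the highest r were 0.942 (EFCAB1) and 0.891 (TMEM220).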

How the data were processed

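RNA of the 5 cell groups was measured on 20 one-colour arrays, 4 a group, grouped by their titles. The authors deposited the Feature Extraction output of each array (version 10.7.3.1, probes annotated on UMD 3.1), with intensity per spot after background subtraction and without normalization between arrays. They also deposited a table of log2 values, which equalled log2 median pixel signal minus the array's median within 5.0e-09, so background was not subtracted in it. Its making is otherwise not given in the sources consulted.

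After removal of control and outlier spots, log2 processed intensity was scaled by subtracting its 75th percentile over 61325 probes. The median over the spots of a gene was taken, as in the study. Of 9779 probes without a gene name, 734 were named by accession from the RefSeq table and the others kept their transcript names. limma 3.58.1 in R 4.3.3 was fitted over 22550 genes, for the cell types on 16 arrays and for CC after IVM against CC on 8, with Benjamini-Hochberg adjustment. A fold against a group with no array well above background is given only as a bound, set per array by the dimmest probe that was well above background, while counts of calls include such genes. By group pair, same-numbered arrays deviated together most for TH and GC (r = 0.196 to 0.442 over genes). For GC and CC the r were also all positive (0.021 to 0.191), and every other group pair held a negative r. Same-numbered arrays of TH, GC and CC also share a slide. TH replicate 1 with GC replicate 2 reached 0.176, so shared animals are not shown. The main fits use no pairing. Each member probe was also fitted on its own.

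The fits were tested on simulated data. The number of arrays limits the precision. The alternatives were other normalizations, normexp (offset 50), the deposited table, other summaries of probes, a filter, other fits, slide or replicate as a block, each slide alone and leaving out each array, and, chosen after seeing the data, 4 arrays high in CD81 left out together. Members and lists were chosen with earlier results of these data known. The values of 1 binding partner are not reported here. Named genes are all 9 members, up to 4 called genes with the largest difference per list and comparison, and the 3 genes with the highest r to each member. Figures were made in Python 3.11.15 with matplotlib 3.10.9.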

Additional observations from a re-analysis of the deposited data

Results flagged for a closer look

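CD81 on TH replicate 4 was 4.38, against 2.25 to 2.33 on the other TH arrays, a gap of 0.97 of the group's range. CD81 on oocyte replicate 1 was 2.84, against −0.40 to −0.21 on the other oocyte arrays, a gap of 0.94. Both gaps exceed the limit of Dixon's test for 4 values. They were 2 of the 34 groups tested, and chance gives about 1 in 20.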

How the results depend on the processing

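Over 27 differences of single members (oocyte, TH and IVM comparisons), 726 of 764 alternative values gave the same call, 25 lost the call, 13 gained one and 0 called values reversed. With normexp background correction, other tetraspanins lower in the oocyte numbered 14 (8 in the main fit), members higher after IVM 5 (2), and other tetraspanins called after IVM 21 (10). In the deposited table, other tetraspanins lower in the oocyte numbered 14. Over all genes the median oocyte difference was −1.30 with normexp and −0.63 in the deposited table, against −0.52 in the main fit. The median after IVM was 0.57 with normexp, against 0.37. The share of all genes called in these settings was not set beside the counts. Within slide 1, with 2 arrays a group, they numbered 5, combinations of a member and a pair of cell types 17 (32) and members higher in TH 3 (6). The cause was not tested for normexp or the deposited table. CD37 turned in TH minus GC under normexp (−0.10).

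Leaving out 1 array gave 7 to 9 members called by the F-test, 8 lower in the oocyte in every case and 0 higher, 28 to 35 combinations, 4 to 6 members higher in TH, 2 to 3 higher and 0 to 1 lower after IVM. For other tetraspanins it gave 18 to 21 by the F-test, 7 to 10 lower and 6 to 8 higher in the oocyte, and 7 to 12 called after IVM. Without the 4 arrays high in CD81, members lower after IVM numbered 0 (CD82, −0.63, adjusted p = 0.073 by limma).

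Over all groups same-numbered arrays correlated at −0.265 to 0.442, and 10 of 20 arrays correlated best with their own number. On the 16 arrays of TH, GC, CC and oocyte the median r was 0.12 for same-numbered pairs. It was −0.0215 for the other pairs. Same-numbered arrays of these 4 groups also share a slide, so the values do not settle whether a shared number marks pairing. The replicate block changed no member's call between TH and GC, and with it CD9 passed between GC and CC (0.72, adjusted p = 0.049 by limma). With replicate as a block, 8 members passed the F-test, 8 were lower in the oocyte, 33 combinations passed, 6 members were higher in TH, and 2 were higher and 1 lower after IVM. Signal near background limits CD37, TSPAN8 and the dim probe of TSPAN4, and the scale of the oocyte depends on the normalization.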
